A study of Mus musculus with 40 samples.

Results

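Transcripts of 10 chemokines (Ccl2, Ccl3, Ccl4, Ccl5, Ccl6, Ccl8, Ccl12, Cxcl10, Cxcl13 and Cxcl16) were read in mouse cerebellum and cerebrum (cerebral cortex) with a 1-colour Agilent expression array. The genes were taken by name from the gene column of the array files, which gave 11 probes of the 55589 kept and 10 genes of the 36362 gene names on the array. The study asked how ageing and long-term lack of vitamin E (α-tocopherol) changed gene expression in both regions. It used wild-type mice and mice without Ttpa, the α-tocopherol transfer protein that keeps vitamin E in the circulation. There were 5 groups in each region with 4 mice in a group, 40 arrays in all. They were 2-month-old wild-type mice on the normal diet (36 mg α-tocopherol per kg), 29-month-old wild-type mice on the same diet, wild-type mice of the same age on a deficient diet, 29-month-old Ttpa-/- mice on the deficient diet, and 29-month-old Ttpa-/- mice on a supplemented diet (600 mg per kg). Young Ttpa-/- mice and aged Ttpa-/- mice on the normal diet were not part of the design, so age was compared in wild-type mice, and genotype was compared at 1 diet, the deficient one.

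Chemokines are small secreted proteins that steer leukocytes by binding receptors coupled to G proteins. In the brain they are made mainly by microglia, by macrophages at the vessels and meninges, by astrocytes and by vessel endothelium, and they are known to be induced by inflammatory cytokines and interferons. Ccl3, Ccl4 and Ccl5 attract macrophages and T cells, Ccl2 and Ccl12 are ligands of the monocyte receptor Ccr2, Cxcl10 binds Cxcr3 of activated T cells, Cxcl13 binds Cxcr5 of B cells and Cxcl16 binds Cxcr6. The arrays read whole tissue, so more cells of a type and more RNA per cell cannot be told apart, and these data do not name the cell that made a transcript.

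The member genes lie in clusters, and 8 of the 10 probes used are on mouse chromosome 11 (mm9). The probes of Ccl2 (chr11:81850650-81850709), Ccl12 (chr11:81916764-81916823) and Ccl8 (chr11:81930108-81930167) lie on the plus strand of 1 cluster. The probes of Ccl5 (chr11:83339296-83339355), Ccl6 (chr11:83401997-83402056) and Ccl3 (chr11:83461358-83461417) lie on the minus strand of the next cluster, with Ccl4 (chr11:83478052-83478111) beside them on the plus strand. Cxcl16 lies apart on the same chromosome (chr11:70267780-70267839, minus strand), and Cxcl10 (chr5:92775781-92775840, minus strand) and Cxcl13 (chr5:96389861-96389920, plus strand) are on chromosome 5. The 250 bases before the transcription start were read from RefSeq (GRCm38.p6) for 6 members, Ccl3, Ccl6, Ccl8, Ccl12, Cxcl10 and Cxcl13, and 4 of them are shown here, chosen as windows with different matches and with none among members that were higher in aged brain. Capitals mark matches, on either strand, to the NF-kappaB motif, to the interferon-stimulated response element GAAANNGAAA, or to the TATA box TATAAA, and overlapping matches were counted apart.
Cxcl10: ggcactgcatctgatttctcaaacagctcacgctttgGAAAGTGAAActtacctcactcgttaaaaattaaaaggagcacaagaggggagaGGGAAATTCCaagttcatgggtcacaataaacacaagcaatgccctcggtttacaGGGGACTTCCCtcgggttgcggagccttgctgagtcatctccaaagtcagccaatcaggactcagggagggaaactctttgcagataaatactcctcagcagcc
Ccl8: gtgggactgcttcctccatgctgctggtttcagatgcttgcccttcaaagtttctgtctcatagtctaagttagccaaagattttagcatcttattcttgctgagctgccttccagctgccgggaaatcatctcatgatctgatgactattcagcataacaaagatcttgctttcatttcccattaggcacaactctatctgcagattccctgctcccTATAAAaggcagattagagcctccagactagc
Ccl12: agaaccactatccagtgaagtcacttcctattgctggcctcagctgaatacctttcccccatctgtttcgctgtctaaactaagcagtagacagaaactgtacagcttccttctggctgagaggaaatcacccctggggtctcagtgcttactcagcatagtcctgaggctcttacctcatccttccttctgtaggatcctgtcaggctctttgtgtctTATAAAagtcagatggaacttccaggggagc
Ccl3: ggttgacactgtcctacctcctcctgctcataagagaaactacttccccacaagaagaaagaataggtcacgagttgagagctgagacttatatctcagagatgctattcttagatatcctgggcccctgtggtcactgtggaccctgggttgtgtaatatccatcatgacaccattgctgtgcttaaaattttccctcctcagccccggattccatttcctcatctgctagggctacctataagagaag
The Cxcl10 window (chr5:92348890-92349139, minus strand) held the GAAANNGAAA letters from 213 to 204 bases before the start and NF-kappaB matches from 159 to 150 bases, from 104 to 95 and, overlapping the latter, from 103 to 94. Ccl8 (chr11:82114935-82115184, plus strand) and Ccl12 (chr11:82101595-82101844, plus strand) held TATAAA from 32 to 27 and from 31 to 26 bases before the start, and the Ccl3 window (chr11:83649379-83649628, minus strand) held no match. The NF-kappaB motif was in 7.25% of 32851 mouse promoter windows of this length, the GAAANNGAAA letters in 2.98% and TATAAA in 12.4%, against 1, 1 and 3 of the 6 members. A match describes the letters in the window and is not a site that was measured.

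Values below are log2 of the processed probe signal divided by the 75th percentile of its array, so that 0 is the level of that percentile and each step of 1 is a doubling. A difference was called when limma's adjusted p over all probes tested was under 0.05 and the fold change was over 1.5. Levels of different probes were not set against each other. Between 28580 and 34128 probes were well above background on an array, and the lowest correlation between arrays of a group was 0.973. As a check of the genotype labels, 1 of 2 Ttpa probes was well above background on 4 of 4 arrays of each wild-type group of cerebellum. This probe averaged between -3.78 and -3.01 in those 3 groups. It averaged -6.76 in Ttpa-/- cerebellum on the deficient diet, with 0 of 4 arrays well above background, and -5.67 on the supplemented diet, with 1 of 4. In cortex it was well above background on 1 of 12 wild-type and 0 of 8 Ttpa-/- arrays, and averaged between -5.50 and -4.65 in the wild-type groups against -6.88 and -6.68 in the Ttpa-/- ones. The other Ttpa probe was at background in every wild-type group, so it cannot check the labels. It was well above background on 1 of 4 arrays of deficient Ttpa-/- cerebellum (mean -5.53). The cortical marker Fezf2 was well above background on 0 arrays of cerebellum, and the cerebellar markers Gabra6, Cbln3 and Barhl2 on 0 arrays of cortex. The other listed markers of each region were well above background on some arrays of the other region. In young mice the summed cortical markers were 40.8 to 51.7 in cortex and 1.26 to 1.69 in cerebellum, in multiples of the 75th percentile. The summed cerebellar markers were 2.33 to 2.80 and 420 to 517. The arrays came on 5 slides with 2 groups on each. Young and aged wild-type cortex shared a slide, as did the 2 wild-type diets of aged cerebellum and the 2 Ttpa-/- diets of cerebellum. In every other comparison slide and condition cannot be told apart.

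Nearly all of the 10 members were higher in aged than in young wild-type brain. They were chosen with earlier results of these data known, so the shares of all probes given beside them do not test the set. In cortex 9 of the 10 members were called higher at 29 than at 2 months, where 1.59% of the 28043 probes tested were called higher, and in cerebellum the same 9 were called, where 3.99% of 30627 probes were. The median difference over the 10 members was 2.26 in cortex and 2.91 in cerebellum, beside -0.03 and -0.01 over all probes tested. The 4 aged arrays lay above the 4 young arrays for 9 members in cortex, beside 6.88% of probes, and for 10 members in cerebellum, beside 9.87%. For each such member the exact two-sided permutation test gave p = 0.0286, the smallest that 4 against 4 arrays allow. Cxcl13 was the member that was not tested. Several young groups were at background, and such members entered the test through the aged group. Ccl6, Ccl12 and Cxcl10 in cortex and Ccl5, Ccl6 and Cxcl16 in cerebellum were well above background on all 8 arrays compared.

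**Figure D1:**
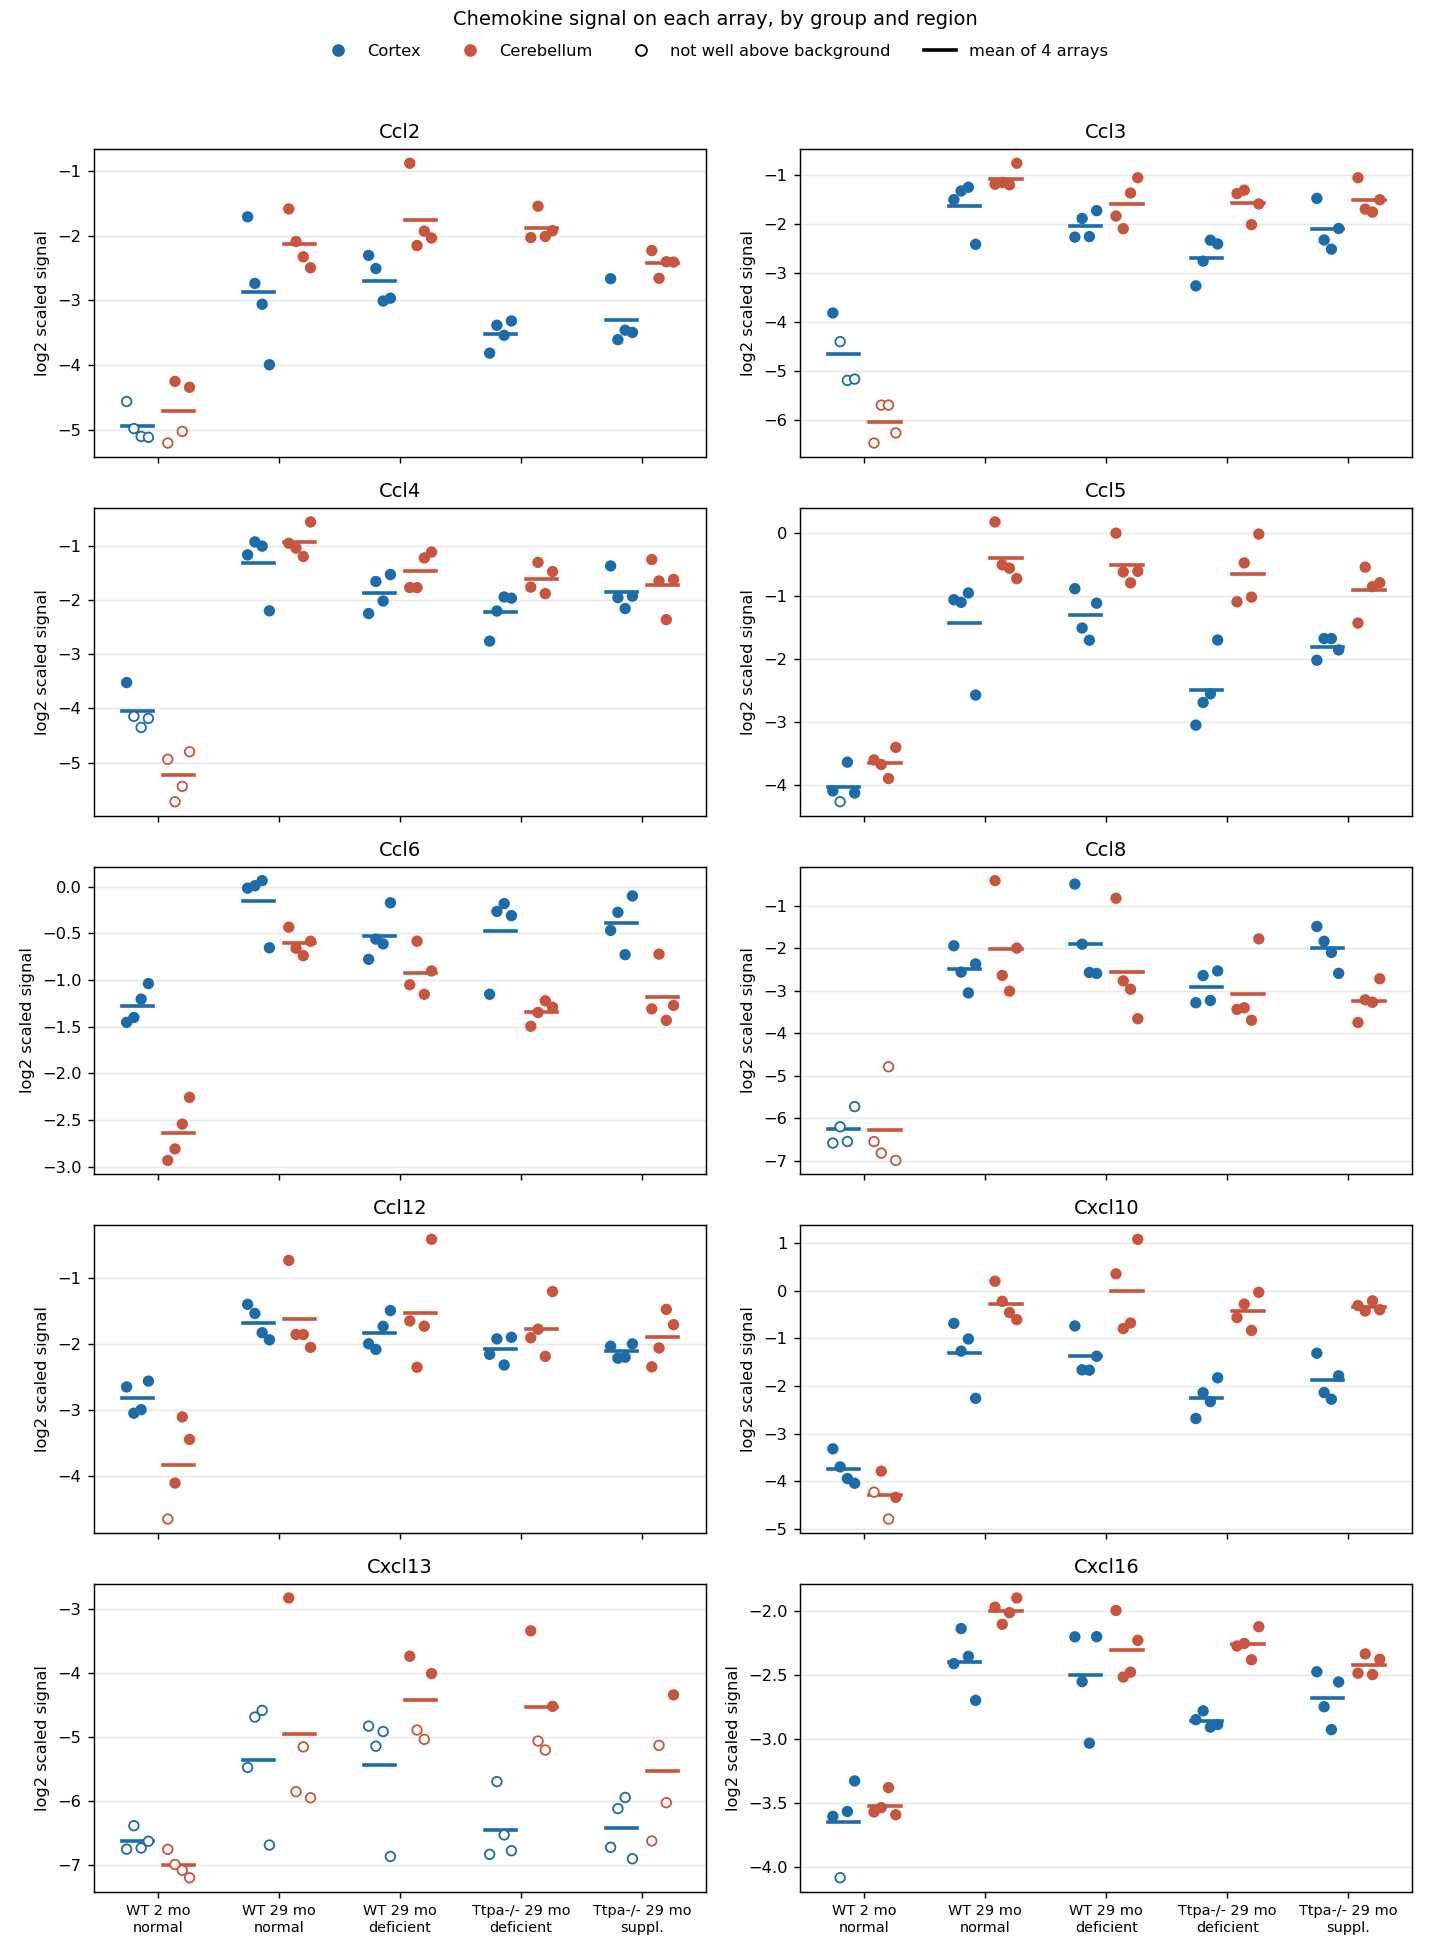
Log2 scaled probe signal of each of the 10 chemokines (y axis) on every array, by group along the x axis, with blue points for cortex, red points for cerebellum, open points for arrays on which the probe was not well above background, and a line at the mean of 4 arrays. The young groups lie lowest, and Cxcl13 is well above background on 6 arrays of aged cerebellum and on 0 arrays of cortex.

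Ccl3 and Ccl4, attractants of macrophages and T cells, were near background in young mice and clearly measured in aged mice. Ccl3, or MIP-1α, read -3.82, -4.40, -5.19 and -5.17 in young cortex, where 1 of 4 arrays was well above background, and -1.50, -1.32, -1.25 and -2.41 in aged cortex. The difference was 3.02 (SE 0.29, adjusted p = 2.54e-08). In young cerebellum Ccl3 read -6.47, -5.70, -5.70 and -6.26, with 0 of 4 arrays well above background, and in aged cerebellum it read -1.18, -1.15, -1.20 and -0.76. The 4 aged arrays thus lay well above the 4 young ones, which were at background, and the aged level was at least 13.1-fold higher (adjusted p = 7.93e-14). Such a bound compares the bright group with the lowest signal that was well above background, or with the probe's own signal where that was higher. The adjusted p beside a bound is limma's for the difference of means, values at background included, and does not test the bound. A bound was given only where 0 of 4 arrays of the dimmer group were well above background. Folds without a bound include values at background where the young group was only partly above it.

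Ccl4, or MIP-1β, is encoded next to Ccl3 and moved in the same way. It read -3.52, -4.14, -4.35 and -4.18 in young cortex, with 1 of 4 arrays well above background, and -1.16, -0.92, -1.0 and -2.20 in aged cortex, a log2 difference of 2.73 (SE 0.27, adjusted p = 3.27e-08). In cerebellum it went from -4.94, -5.72, -5.44 and -4.80, with 0 of 4 arrays well above background, to -0.95, -1.04, -1.19 and -0.55, at least 14.0-fold higher (adjusted p = 2.11e-13). No aged array of either region reached down to the young range.

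Ccl5, or RANTES, recruits T cells and was 6.10-fold higher in aged than in young cortex (log2 difference 2.61, SE 0.30, adjusted p = 6.40e-07) and 9.45-fold higher in cerebellum (3.24, SE 0.30, adjusted p = 1.27e-09). The young cortex read -4.09, -4.27, -3.64 and -4.13, with 3 of 4 arrays well above background, and the aged cortex read -1.06, -1.10, -0.95 and -2.57. The fourth aged cortex stood well below the other 3 but still above every young array. The young cerebellum read -3.60, -3.68, -3.90 and -3.40 and the aged cerebellum 0.17, -0.51, -0.56 and -0.73, so this transcript was measured at both ages there.

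Ccl8 (MCP-2) went from background to a clear signal with age. In young cortex it read -6.58, -6.19, -6.54 and -5.72, with 0 of 4 arrays well above background, and in aged cortex -1.94, -2.56, -3.05 and -2.37, at least 3.85-fold higher (adjusted p = 3.43e-05). The young cerebellum was also at background, from -6.98 to -4.79, and the aged cerebellum read -0.41, -2.64, -3.01 and -2.0, at least 6.73-fold higher (adjusted p = 1.17e-06). The first aged cerebellum was the brightest of its group by more than 1.5, and Ccl8 had the largest standard error of the tested members, 0.55 for a difference between any 2 groups.

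Ccl2 (MCP-1), the main ligand of Ccr2, read -4.56, -4.98, -5.10 and -5.12 in young cortex, with 0 of 4 arrays well above background. It read -1.71, -2.74, -3.06 and -4.00 in aged cortex, at least 2.93-fold higher (adjusted p = 7.45e-05). The aged cortical arrays spread over more than 2 log2 units, the widest spread of any member tested in that group, yet none reached the young range. In cerebellum Ccl2 went from -5.21, -4.25, -5.03 and -4.34, with 2 of 4 arrays well above background, to -1.59, -2.09, -2.33 and -2.50, a 5.99-fold increase (log2 difference 2.58, SE 0.32, adjusted p = 4.61e-07).

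Ccl12 (MCP-5), another ligand of Ccr2, differed less. It read -2.65, -3.05, -3.00 and -2.56 in young cortex and -1.40, -1.54, -1.83 and -1.94 in aged cortex, a 2.20-fold increase (log2 difference 1.14, SE 0.31, adjusted p = 0.0310). This call was lost when young cortex replicate 1, 2 or 3 or aged cortex replicate 1, 2 or 3 was left out, with differences from 1.04 to 1.22 over the 8 such fits. In cerebellum it went from -4.65, -4.11, -3.11 and -3.45, with 3 of 4 arrays well above background, to -0.74, -1.86, -1.86 and -2.05, a 4.59-fold increase (log2 difference 2.20, SE 0.31, adjusted p = 5.91e-06).

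Ccl6, a ligand of Ccr1 made by myeloid cells, was measured on 40 of 40 arrays. It read -1.46, -1.40, -1.21 and -1.04 in young cortex and -0.02, 0.01, 0.06 and -0.66 in aged cortex, a 2.18-fold increase (log2 difference 1.13, SE 0.19, adjusted p = 0.000355). In young cerebellum it read -2.93, -2.81, -2.54 and -2.26, and in aged cerebellum -0.44, -0.66, -0.74 and -0.59, a 4.09-fold increase (log2 difference 2.03, SE 0.19, adjusted p = 2.84e-09). Ages did not overlap in either region.

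Of the CXC members, Cxcl10 (IP-10), an interferon-induced ligand of Cxcr3, read -3.32, -3.70, -3.94 and -4.04 in young cortex and -0.68, -1.27, -1.01 and -2.26 in aged cortex, a 5.45-fold increase (log2 difference 2.45, SE 0.33, adjusted p = 9.04e-06). In young cerebellum it read -4.23, -3.79, -4.79 and -4.33, with 2 of 4 arrays well above background, and in aged cerebellum 0.20, -0.22, -0.46 and -0.60, a 16.2-fold increase (log2 difference 4.02, SE 0.33, adjusted p = 9.44e-11). As with Ccl5, the fourth aged cortex was the lowest of its group. A second Cxcl10 probe was well above background on 0 of 40 arrays and was not tested.

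Cxcl16, a chemokine made as a membrane protein and released by proteolysis, rose by the smallest amount in cerebellum among the tested members. It went from -3.60, -4.08, -3.57 and -3.33 in young cortex, with 3 of 4 arrays well above background, to -2.41, -2.14, -2.35 and -2.70, a 2.37-fold increase (log2 difference 1.25, SE 0.15, adjusted p = 1.33e-06). In cerebellum it went from -3.57, -3.54, -3.38 and -3.59 to -1.97, -2.10, -2.01 and -1.90, a 2.88-fold increase (log2 difference 1.52, SE 0.15, adjusted p = 4.55e-09). Its arrays were tightly grouped at each age.

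Cxcl13, the B-cell attractant, was well above background on 0 of 20 arrays of cortex and on 6 of 20 arrays of cerebellum, all of them aged. The young cerebellum read from -7.21 to -6.76, with 0 of 4 arrays well above background. The aged wild-type cerebellum read -2.82, -5.86, -5.16 and -5.95, with 1 array well above background, and that of wild-type mice on the deficient diet read -3.74, -4.89, -5.04 and -4.01, with 2. Among aged Ttpa-/- cerebella, 2 of 4 on the deficient diet and 1 of 4 on the supplemented diet were well above background, so this gene was seen in some aged mice of each group and not in others.

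**Figure D2:**
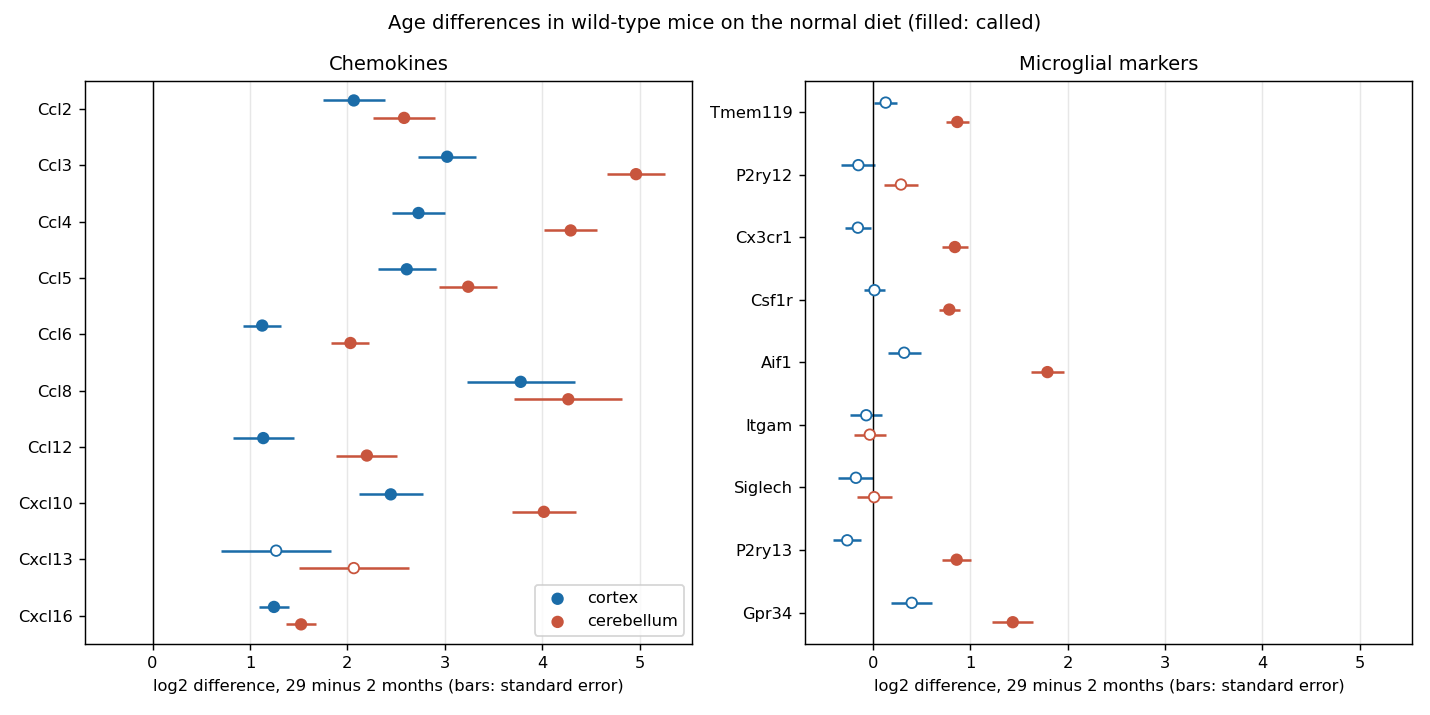
Log2 difference between 29-month-old and 2-month-old wild-type mice (x axis) for each chemokine on the left and each of 9 microglial markers on the right, in cortex (blue) and cerebellum (red), with bars of 1 standard error and filled points for called differences. The chemokines were called in both regions except Cxcl13, while 0 microglial markers were called in cortex and 6 in cerebellum.

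The test of a difference in the age effect between regions passed for 2 of 9 members, Ccl3 and Ccl4, where 1.46% of 31372 probes were called in either direction, and both had the larger age difference in cerebellum. For Ccl3 the age difference was larger by 1.94 (SE 0.42, adjusted p = 0.00818), and the call held when each of the 16 arrays was left out in turn. For Ccl4 it was larger by 1.56 (SE 0.38, adjusted p = 0.0242), and this call was lost without young cortex replicate 1, aged cortex replicate 4, young cerebellum replicate 2 or aged cerebellum replicate 4, with values between 1.27 and 1.70. Cxcl10 (1.57, adjusted p = 0.0826) and Ccl6 (0.91, adjusted p = 0.0943) had differences of similar or smaller size that did not pass. For Ccl3 and Ccl4 most of the contrast lay in the young mice, where 7 of the 8 young arrays were not well above background, so the size of that difference rests on signals near the floor. After median scaling 1 member passed (Ccl3), and with the 4 groups fitted alone 0 did. In the same test 5 of 9 microglial markers (Tmem119, Cx3cr1, Csf1r, Aif1 and P2ry13, with a median of 0.77 over the 9) and Ms4a7 of border macrophages were called with a larger age difference in cerebellum, and their part in the chemokine values was not tested.

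The regions were also compared within an age. At 2 months 2 of the 5 members tested, Ccl6 and Ccl12, were called higher in cortex than in cerebellum, where 19.1% of 30203 probes were. Ccl6 was higher by 1.36 (SE 0.19, adjusted p = 3.30e-07) and Ccl12 by 1.01 (SE 0.31, adjusted p = 0.00580). Ccl3 was at least 1.1-fold and Ccl4 at least 1.61-fold brighter in young cortex, with 1 of 4 cortical and 0 of 4 cerebellar arrays well above background, and neither was tested. At 29 months 3 members were called lower in cortex, beside 17.8% of 30859 probes: Ccl2 by -0.75 (adjusted p = 0.0447), Ccl5 by -1.02 (adjusted p = 0.00442) and Cxcl10 by -1.03 (adjusted p = 0.00832). None of the 3 was called without aged cortex replicate 4, when Ccl6 was the 1 member called, as higher in cortex, and Ccl2 was also lost without aged cortex replicate 2 or 3 or aged cerebellum replicate 1 or 2 and in 13 of 19 settings in all. With the replicate number as a block Ccl5 was the 1 member called. Cortex and cerebellum of a group lay on different slides. Microglial markers were called higher in cortex for 7 of 9 at 2 months (median 2.01) and 6 of 9 at 29 months (median 0.92), while at 29 months the 5 tested neutrophil markers (median -2.94) and the 5 blood genes (median -2.11) were called lower in cortex, and their part in the chemokine values was not tested.

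Each of the other aged groups was set beside the young wild-type mice of its region. In cortex the aged arrays lay above the young ones for 9 members in wild-type mice on the deficient diet (beside 8.45% of probes), for 8 in Ttpa-/- mice on the deficient diet (12.7%) and for 9 in Ttpa-/- mice on the supplemented diet (8.69%). The median differences over the 10 members were 2.22, 1.47 and 1.75. In cerebellum it was 10 of 10 in each of these groups (10.5%, 12.6% and 13.9%), with medians of 3.05, 2.91 and 2.51. These comparisons share the young arrays, so they are not separate evidence, and genotype, diet and age differ together in the Ttpa-/- ones. In the order of the 5 groups the young mice were lowest for 10 members in cerebellum and for 10 in cortex, although Cxcl13 and, in 1 aged group, Ccl6 overlapped the young range in cortex. Among the 4 aged groups, neighbours in the order of means overlapped for each member and region, except that Cxcl16 in aged wild-type cerebellum on the normal diet (-1.99, SD 0.09) lay above the next group.

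Lack of vitamin E was next compared among aged mice. In cortex 4 members, Ccl3, Ccl4, Ccl5 and Cxcl10, were called lower in Ttpa-/- mice on the deficient diet than in wild-type mice on the normal diet, where 1.60% of 28913 probes were called lower. Ccl3 read -3.26, -2.76, -2.33 and -2.40 in the Ttpa-/- cortex and was lower by -1.07 (SE 0.29, adjusted p = 0.0109). Ccl5 read -3.05, -2.69, -2.55 and -1.70 and was lower by -1.08 (SE 0.30, adjusted p = 0.0115). Both overlapped the wild-type range through wild-type replicate 4. Ccl4, from -2.76 to -1.94, was lower by -0.89 (SE 0.27, adjusted p = 0.0193), and Cxcl10, from -2.68 to -1.83, by -0.94 (SE 0.33, adjusted p = 0.0439). For these 4 the exact permutation test gave p = 0.0857. The median over the 10 members, which counts Cxcl13 at background in both groups, was -0.77, beside -0.02 over all probes. Cxcl16 was the 1 member whose groups did not overlap, beside 11.6% of probes lower in this way, and its decrease of -0.46 (adjusted p = 0.0307) was under 1.5-fold.

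These 4 calls rested on few arrays. None was left without Ttpa-/- replicate 1, Ccl3 and Ccl5 were left without wild-type replicate 1, 2 or 3, and 5 members were called without wild-type replicate 4. Cxcl10 also lost its call without Ttpa-/- replicate 2 or 3, when the other calls held. After median scaling the count was 1 (Ccl5), after normexp background correction it was 2 (Ccl3 and Ccl5), and with the 2 groups fitted alone it was 0. The groups lay on different slides. Summed blood signal (haemoglobins and Alas2) ranged from 15.5 to 473 in the Ttpa-/- cortex and from 18.0 to 40.8 in the wild-type cortex, with 0 of 4 tested blood genes called, and 0 of 9 microglial genes were called, with sums from 196 to 259 against 217 to 284. A sum is weighted to the brightest genes of its list, and the median difference of the 9 microglial genes was -0.13. Whether blood or microglial signal moved the chemokine values was not tested.

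In cerebellum the same comparison called 1 member, Ccl6, lower, where 1.79% of 30604 probes were. Ccl6 read -1.50, -1.35, -1.22 and -1.29 in Ttpa-/- mice on the deficient diet against -0.44, -0.66, -0.74 and -0.59 in wild-type mice on the normal diet, a difference of -0.73 (SE 0.19, adjusted p = 0.0117, 1.66-fold lower). The groups did not overlap and the call held when any of the 8 arrays was left out, with differences from -0.78 to -0.68. The groups also did not overlap for Ccl3 (-0.50), Ccl4 (-0.67, adjusted p = 0.098) and Cxcl16 (-0.26), so that 4 members had lower Ttpa-/- values throughout, beside 7.79% of probes. Of the cell markers, 1 of 9 of microglia (Aif1, with a median of -0.08 over the 9), Ms4a7 and Cbr2 of border macrophages, Gfap of astrocytes (-0.64), Cd79b and Igj of B and plasma cells and Car8 of cerebellum were also called lower in this comparison, and their part in the Ccl6 difference was not tested. In limma's interaction test of the Ttpa-/- difference between regions 0 of 9 members were called, where 3.38% of 31560 probes were called in either direction, and 0 were under 0.05 before adjustment. The difference in cerebellum minus that in cortex was above 0 for 8 of the 10 members, with a median of 0.41, and 1 member, Ccl5, was called without aged wild-type cortex replicate 4.

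The deficient diet alone gave no call. In wild-type mice 0 members passed in cortex, where 0.223% of probes did, and 0 in cerebellum, where 1.27% did, and with no adjustment limma gave Cxcl16 in cerebellum (-0.31, limma's adjusted p = 0.233). In cortex the differences of the tested members ran from -0.54 for Ccl4 to 0.59 for Ccl8. In cerebellum, where both diets shared a slide, they ran from -0.54 for Ccl8 to 0.37 for Ccl2. Their standard errors ran from 0.15 for Cxcl16 to 0.55 for Ccl8.

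Ttpa-/- mice on the deficient diet were also set against wild-type mice on the same diet. Ccl5 was called lower in cortex by -1.20 (SE 0.30, adjusted p = 0.00942), where 1.53% of 29061 probes were called lower. It read -3.05, -2.69, -2.55 and -1.70 in the Ttpa-/- cortex and -0.89, -1.51, -1.70 and -1.12 in the wild-type cortex, so the ranges met at 1 array each. Without Ttpa-/- replicate 1 there was no call, and without replicate 4 both Ccl5 and Cxcl10 were called. Ccl2 (-0.82), Ccl3 (-0.66) and Cxcl10 (-0.88) did not overlap between the groups and had adjusted p of 0.0838, 0.134 and 0.0716, beside 9.49% of probes lower without overlap. In cerebellum 0 members were called by limma, where 4.94% of probes were, and with no adjustment 1 was under 0.05 (Ccl6, -0.42, limma's adjusted p = 0.157). The wild-type and Ttpa-/- values of Ccl6 did not overlap there, beside 5.19% of probes lower.

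For the supplemented Ttpa-/- mice, 0 members were called against wild-type mice on the normal diet in cortex, where 0.0920% of probes were called, and 0 were under 0.05 in limma before adjustment. Ccl12 was lower on 4 of 4 arrays (-0.44, adjusted p = 0.834), beside 3.83% of probes lower without overlap. In cerebellum Ccl4 was called lower by -0.78 (SE 0.27, adjusted p = 0.0470), where 1.57% of 31265 probes were. Its 4 values, -1.25, -1.64, -2.36 and -1.62, lay below the 4 wild-type values, as did those of Cxcl16 (-0.43), where 21.3% of probes had groups that did not overlap, but the call was lost without any 1 of the wild-type replicates 1 to 4 or of Ttpa-/- replicates 2, 3 and 4, with differences from -0.94 to -0.57. Ccl6 was lower by -0.58 (adjusted p = 0.0417), under 1.5-fold. This comparison and those of the deficient groups share the normal-diet wild-type arrays. Between the deficient and the supplemented diet in Ttpa-/- mice, 0 members were called in cortex, where 3.31% of probes were, with 1 under 0.05 by limma before adjustment (Ccl5, -0.69, adjusted p = 0.122). In cerebellum 0 were called, where 0.343% were, and 0 were under 0.05 unadjusted in limma, although Ccl2 was higher on the deficient diet on 4 of 4 arrays (0.55, adjusted p = 0.550), beside 2.86% of probes higher without overlap.

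**Figure D3:**
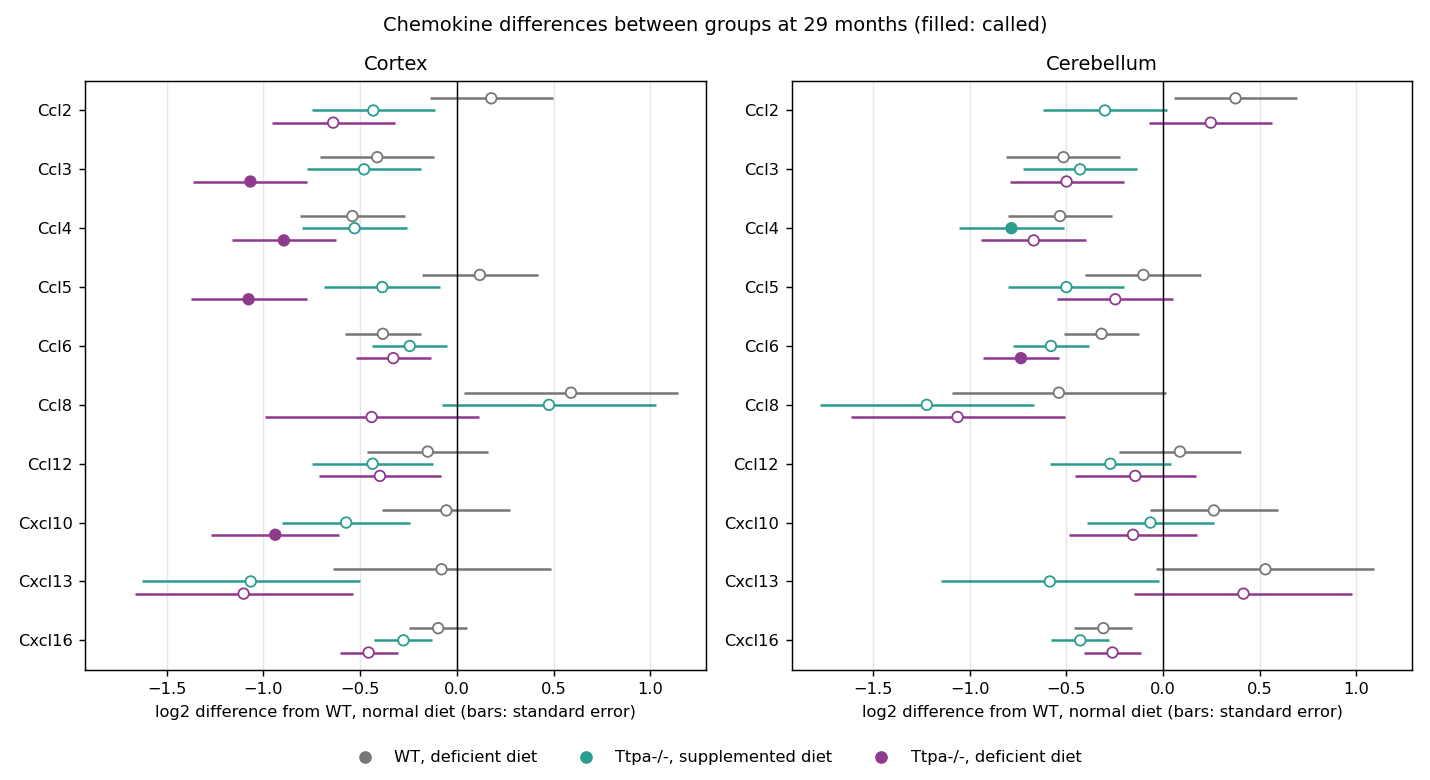
Log2 difference of 3 aged groups from normal-diet wild-type mice of that age (x axis) for each chemokine in cortex on the left and cerebellum on the right, with bars of 1 standard error and filled points for called differences. In cortex the filled points are Ccl3, Ccl4, Ccl5 and Cxcl10 of the deficient Ttpa-/- mice, and in cerebellum Ccl6 of those mice and Ccl4 of the supplemented Ttpa-/- mice.

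The members varied together over the arrays, which is described here with no test since the arrays share slides, scaling and age groups. Ccl3 and Ccl4 correlated with r = 0.976 over 40 arrays, 0.966 over the 16 aged arrays of cortex and 0.842 over the 16 aged arrays of cerebellum. Ccl2 and Cxcl10 had r = 0.944 over 40 arrays and 0.875 over aged cortex, but 0.412 over aged cerebellum. In aged cerebellum the next closest pairs after Ccl3 and Ccl4 were Ccl12 with Cxcl10 (r = 0.837) and Ccl5 with Ccl8 (r = 0.817), whereas in aged cortex these had r = 0.656 and 0.453, and Ccl5 with Cxcl10 had r = 0.847. Differences between these correlations were not tested.

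**Figure D4:**
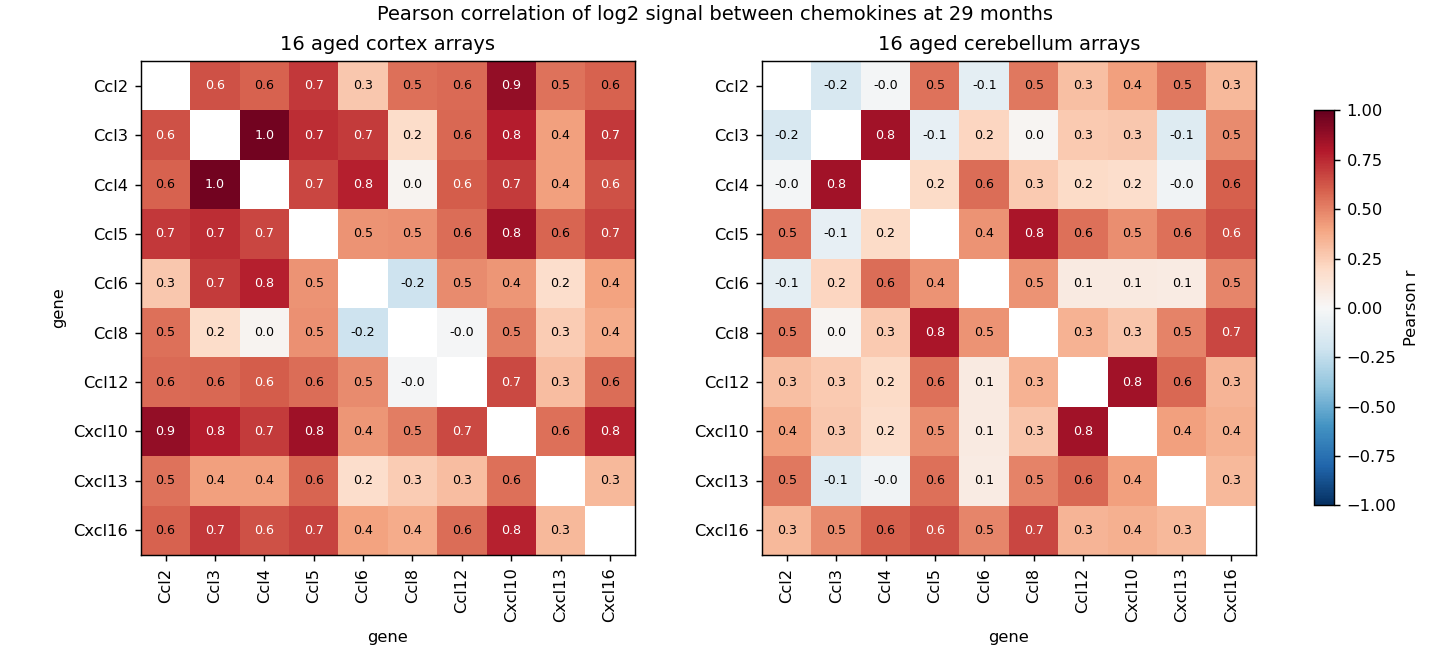
Pearson r of log2 signal between each pair of chemokines over the 16 aged arrays of cortex on the left and of cerebellum on the right, as colour from -1 to 1 with the rounded value in each square. Ccl3 and Ccl4 have the highest r in each region (0.966 and 0.842), and Cxcl10 has higher r with the other members in cortex than in cerebellum for all but Ccl12.

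Of 18310 genes compared, those most like Ccl3 over the 40 arrays were Ccl4, Cst7 (r = 0.970) and Cd52 (r = 0.967), of which Cst7 encodes a cystatin of myeloid cells and Cd52 a small leukocyte surface protein. Cd52 and Cst7 were also nearest to Ccl4 (r = 0.973 for each). Ccl5 was nearest to Lyz1, which encodes a lysozyme (r = 0.963). Ccl6 was nearest to Ly86, a partner protein of a Toll-like receptor homologue (r = 0.944, with 0.808 and 0.83 over the aged arrays of cortex and cerebellum). Ccl8 was nearest to Psmb8, a subunit of the immunoproteasome (r = 0.871), and to H2-Ab1, a class II histocompatibility chain (r = 0.868, with 0.592 over aged cortex and 0.872 over aged cerebellum). Ccl2 was nearest to Cxcl10, Ccl5 and Tlr2 (r from 0.920 to 0.944), Ccl12 to Ctss, Cd52 and Ifit2 (r from 0.856 to 0.868), and Cxcl16 to Lyz1, Clec7a and Ccl5 (r from 0.928 to 0.934). Cxcl10 was nearest to Lyz1 (r = 0.950, with 0.851 over aged cortex and 0.349 over aged cerebellum), and the interferon-induced Ifi204 was also near (r = 0.948, with 0.802 and 0.893). These values hold the difference between young and aged arrays, and some were low within the aged arrays of a region, with -0.09 for Ccl12 and Ifit2 in cortex, 0.260 for Ccl12 and Ctss and 0.313 for Ccl2 and Tlr2 in cerebellum, and 0.172 and 0.03 for Ccl8 and C4b in cortex and cerebellum.

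The receptors of the members were mostly too dim to test. Of 10 listed receptors, 2 were tested for age in cortex and 0 were called, and 5 were tested in cerebellum, where Cxcr3, the receptor of Cxcl10, was called at least 1.4-fold higher in aged mice (adjusted p = 0.00495). The median difference of the tested receptors was -0.24 in cortex and -0.34 in cerebellum, against 2.26 and 2.91 for the members. Ackr1, a decoy receptor of vessels and red cells that binds many chemokines, was called higher in cortex of deficient Ttpa-/- mice than of normal-diet wild-type mice by 0.69 (SE 0.12, adjusted p = 0.000430), the 1 receptor called there of 3 tested.

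Of 25 other chemokines on the array, 11 were tested for age in cortex and 1 was called higher, Cxcl5, a ligand of the neutrophil receptor Cxcr2, at least 3.67-fold. In cerebellum 7 of 12 tested were called higher, among them the platelet chemokine Ppbp (at least 5.55-fold), Cxcl5 (log2 difference 1.94), Ccl7 (1.81) and Ccl19 (1.32), and the median of those tested was 0.82. In deficient Ttpa-/- against normal-diet wild-type mice, Ccl19 was called lower in cortex (-1.74) and in cerebellum (-1.0), where Ccl9 was too (-0.66). Of 21 known inducers and signalling genes, 1 of 13 tested was called higher with age in cortex, Nfkb2 (0.62), and 3 of 14 in cerebellum, the interferon regulatory factors Irf7 (1.42), Irf9 (1.04) and Irf1 (1.01). For deficient Ttpa-/- against normal-diet wild-type mice, 0 of 14 tested were called in either region. The cytokines Tnf, Il1a, Il6, Ifng, Ifnb1 and Il10 were well above background on 0 of 4 arrays of both groups in both regions. They were not tested there, so the 0 calls do not cover them.

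Markers of cells moved with age beside the chemokines, and their part in the chemokine differences was not tested. Of 9 microglial markers 0 were called in cortex (median -0.07), with summed levels of 234 to 311 in young and 217 to 284 in aged mice, in multiples of the 75th percentile. In cerebellum 6 of 9 were called higher (median 0.84), led by Aif1 (1.79), Gpr34 (1.44), Tmem119 (0.87) and P2ry13 (0.86), with sums of 215 to 236 in young and 210 to 256 in aged mice. A sum is weighted to the brightest genes of its list, so it can stay level while most of the genes differ. The median differences of the 10 chemokines were 2.26 in cortex and 2.91 in cerebellum. These count untested Cxcl13 and some members at background in young mice, so they are not like the medians of the markers. Of 8 markers of border macrophages, 6 were tested in cortex and 3 called higher (Cd209f 1.60, Ms4a7 0.97, F13a1 0.66). Sums over the 8 ran from 2.29 to 2.62 in young and 3.08 to 3.88 in aged mice, with Cd163 at background in aged mice. In cerebellum 2 of 7 tested were called (Ms4a7 2.22, Pf4 0.91), with sums from 1.60 to 2.09 and 3.12 to 4.14. Of 9 endothelial markers 0 were called in cortex and 1 in cerebellum, Ly6c1 (0.76), with sums of 38.9 to 52.1 against 44.4 to 49.99 in cortex and 38.0 to 40.6 against 44.0 to 55.1 in cerebellum.

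Blood genes and a few leukocyte markers were also called higher in aged tissue. Summed blood signal was 1.74 to 7.32 in young and 18.0 to 40.8 in aged cortex, with 1 of 4 tested genes called (Hbb-b2, 2.93). In cerebellum it was 9.79 to 24.9 in young and 38.5 to 272 in aged mice, with 4 of 5 called. Of 6 neutrophil markers 3 were tested in cortex, and S100a8 (3.26) and S100a9 (3.29) were called. Sums over the 6 were 0.337 to 0.616 in young and 1.74 to 2.07 in aged mice, with Ngp, Ltf and Mmp8 at background at both ages. In cerebellum 0 of 5 tested neutrophil markers were called, with sums of 1.50 to 4.95 and 5.31 to 54.1. Of 11 markers of T and cytotoxic cells, 5 were tested in cortex and 0 of them called. In cerebellum 6 were tested and 3 called, Cd2 (at least 2.31-fold), Lck (0.81) and Gzma (0.72). Of 5 markers of B and plasma cells, 2 were tested in cortex, with 0 called, and 3 in cerebellum, where Igj was called (at least 4.25-fold). The rest were too dim to test. Of the remaining lists, astrocytes gave Gfap in both regions (1.51 and 1.87), the choroid plexus gave Kl lower in cerebellum (-2.30), and 0 of 2 tested monocyte markers were called in either region.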

How the data were processed

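Total RNA from cortex and cerebellum was hybridised to 1-colour arrays, 1 array per mouse and region, in 10 groups of 4. The authors deposited scanner output of Agilent Feature Extraction (version 10.7.3.1 in the file headers, 10.1.1.1 in the processing notes), in which gProcessedSignal is a background-corrected intensity, with flag columns (another unit, 0 or 1) for spots well above background, saturated or outlying. The authors also deposited a table of log2 values after global normalization, which differed from the scaled signal by a median of 0.000915 after centring and was used as an alternative only. Log2 of the intensity minus that of the 75th percentile of its array was fitted with limma 3.58.1 in R 4.3.3, with 10 group means over 40 arrays and Benjamini-Hochberg adjustment over probes well above background on 4 of 4 arrays of a compared group. Control spots and flagged outliers were left out (62976 spots per array, 59305 for genes, 55681 probes). Each gene was taken by its probe with the highest mean, list genes by a rule of at most 4 called genes per list, and similar genes as the 3 with the highest Pearson r over 40 arrays. Other scalings, filters, tests, blocks and left-out arrays were tried as alternatives. Array number limits the precision. The 10 members and the lists were chosen with earlier results of these data known, and some listed genes are not reported here. Same-numbered replicates correlated with r over 0.1 in 4 of 4 pairs (r from 0.102 to 0.450) for deficient against supplemented Ttpa-/- cortex. Elsewhere this did not hold in every pair. The labels do not say that equal numbers mark the same mouse or a shared batch. Limma's p-values rest on the spread between mice within a group, pooled over the 10 groups of both regions and moderated over probes. They do not rest on the compared groups alone, and arrays of the 2 regions were taken as independent. An exact permutation test (two-sided, 4 against 4 arrays) was added for each member. On simulated data for age in cortex (28043 probes), 169 of 200 probes changed 2-fold and 196 of 200 changed 4-fold were recovered, with 0 unchanged probes called.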

Additional observations from a re-analysis of the deposited data

Results flagged for a closer look

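In 100 sets of 4 arrays (10 members by 10 groups), 8 held 1 array far from the other 3, and chance flags about 1 in 20 such sets. In aged wild-type cortex, replicate 4 was low for Ccl5 (-2.57, the nearest other array at -1.10) and for Ccl6 (-0.66, the nearest at -0.02). In deficient Ttpa-/- cortex, replicate 1 was low for Ccl6 (-1.15). In supplemented Ttpa-/- cortex, replicate 1 was high for Ccl2 (-2.67). In aged wild-type cerebellum, replicate 4 was high for Ccl3 (-0.76) and replicate 1 was high for Ccl12 (-0.74). In deficient Ttpa-/- cerebellum, replicate 4 was high for Ccl8 (-1.78), and in wild-type cortex on the deficient diet, replicate 4 was low for Cxcl13 (-6.87), where 0 of 4 arrays were well above background. The age difference was larger in cerebellum than in cortex by 1.94 for Ccl3 and by 1.56 for Ccl4 in limma's interaction test.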

How the results depend on the processing

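Counts of called members under other settings are given by comparison. Age in cortex gave 7 to 9 members, and age in cerebellum gave 9 in the alternatives run except 10 with no filter on dim probes. No called difference turned its sign. Deficient Ttpa-/- against normal-diet wild-type cortex (4) gave 1 with median scaling, 2 with normexp, 0 with the groups fitted alone, and by the methods' t-test 2 unadjusted and 0 after Benjamini-Hochberg. In cerebellum (1) the unadjusted t-test gave 2. Supplemented Ttpa-/- against normal-diet wild-type cerebellum (1) gave 0 with median scaling, with no filter, with the groups alone or by the adjusted t-test, and 2 with quantile normalization, array weights or no fold threshold. The age difference between regions (2) gave 1 with median scaling and 0 with the groups alone. Cortex against cerebellum gave, at 2 months (2), 4 with no filter and 1 by the adjusted t-test, and at 29 months (3), 5 with no fold threshold, 1 with the groups alone, 1 by the unadjusted and 0 by the adjusted t-test. Deficient against supplemented Ttpa-/- cortex (0) gave 1 with array weights and 1 by the unadjusted t-test. Deficient Ttpa-/- against deficient wild-type cortex (1) gave 4 with array weights, 0 with the groups alone, and 4 unadjusted and 0 adjusted by the t-test. The cause was not tested.

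With the replicate number as a block, age gave 9 members in cortex and 9 in cerebellum. Deficient Ttpa-/- against normal-diet wild type gave 4 in cortex and 1 in cerebellum. Supplemented Ttpa-/- against normal-diet wild-type cerebellum gave 0 (1 without the block). Cortex against cerebellum at 29 months gave 1, Ccl5 (3 without it). Counts elsewhere were unchanged, including the 0 for deficient against supplemented Ttpa-/- cortex. Leaving out 1 array at a time gave 8 to 9 for age in cortex, 9 to 9 in cerebellum, 1 to 3 for the age difference between regions, 0 to 5 and 1 to 1 for deficient Ttpa-/- against normal-diet wild-type cortex and cerebellum, 0 to 1 for supplemented Ttpa-/- cerebellum, 0 to 2 for deficient Ttpa-/- against deficient wild-type cortex, 0 to 1 for deficient against supplemented Ttpa-/- cortex, 2 to 2 and 1 to 3 for the regions at 2 and 29 months, 0 to 1 for the Ttpa-/- difference between regions, and 0 to 0 in the others. In the 3 comparisons whose groups share a slide, fitting the slide as a block changed no count. The slide is the same for both groups there, so this block could not move the differences and does not check for slide effects. After median scaling the median of all probes was -0.188 for the deficient diet in wild-type cerebellum and 0.167 for deficient Ttpa-/- against deficient wild-type cerebellum, against -0.01 in each before. The called differences of single members were each rerun under the alternative settings, left-out arrays aside. In 308 of these reruns the call was kept and in 49 it fell below the threshold. Differences that were not called are not in these counts. Young arrays near background limit the size of the age differences.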
